A study of Mus musculus with 4 samples.

Results

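The HSP70 chaperones and their partners were examined in erythroblasts, the nucleated precursors of red cells, of mice lacking Parp2, which encodes a poly(ADP-ribose) polymerase activated by DNA breaks. The 10 genes were listed by symbol, and their probe sets were found through the platform annotation: Hspa1a, Hspa1b, Hspa8, Hspa5, Hspa9, Hsp90aa1, Hsph1, Dnajb1, Hspb1 and Hsf1. Of these 10 genes, 8 had a probe set naming them alone, Hspa1b was read only by a probe set shared with Hspa1a, and Hsf1 was not analysed here because the annotation paired no probe set with it. They are 8 of 19938 genes measured in this way. The set was chosen by its log2 expression values on the knockout and WT arrays, in the same contrast reported here, so its values are given as a description and without a test.

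The groups were Parp-2-/- bone marrow cells (2 arrays) and WT bone marrow cells (2 arrays). Both were on a C57BL/6 background and sorted as Ter119+CD71+, that is by an erythroid surface protein and the transferrin receptor, and 100 ng of total RNA from each sample was hybridised to an Affymetrix whole-transcript array. The age of the mice, the deleted part of Parp2 and whether RNA was pooled are not given in the sources used here. Each value is a normalised log2 expression level, so a difference of 1 is a doubling. Numbers 1 and 2 stand for the replicate numbers in the sample titles.

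HSP70 proteins bind unfolded stretches of other proteins in a cycle driven by ATP. J-domain proteins such as DNAJB1 bring clients and start ATP hydrolysis, HSP110 proteins such as HSPH1 release the ADP, HSP90 takes over some clients, and small heat shock proteins such as HSPB1 hold unfolded proteins in solution. Hspa8 is the constitutive cytosolic gene and Hspa1a and Hspa1b the stress-inducible ones, which the factor HSF1 activates through heat shock elements. In human erythroblasts, inducible HSP70 is known to shield the transcription factor GATA1 from caspase-3.

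The bases before the gene start are shown for 4 genes, because heat shock and ER stress elements there are the known route by which such genes are induced. The sequences are from RefSeq (build GRCm38.p6), whose table held 6 of the 10 genes, and each is the 250 bases before the start, 5′ to 3′ on the gene's strand. Capitals mark matches to the heat shock element letters GAANNTTC or TTCNNGAA in the first 3 and, in the last, to the ER stress element, CCAAT followed after 9 bases by CCACG.
Hspa1a, chr17:34972157-34972406, minus strand: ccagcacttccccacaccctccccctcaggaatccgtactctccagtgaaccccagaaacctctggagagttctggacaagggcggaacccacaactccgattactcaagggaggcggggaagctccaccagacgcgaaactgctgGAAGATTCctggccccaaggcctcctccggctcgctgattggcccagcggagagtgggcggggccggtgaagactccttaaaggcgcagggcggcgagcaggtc
Hsph1, chr5:149636337-149636586, minus strand: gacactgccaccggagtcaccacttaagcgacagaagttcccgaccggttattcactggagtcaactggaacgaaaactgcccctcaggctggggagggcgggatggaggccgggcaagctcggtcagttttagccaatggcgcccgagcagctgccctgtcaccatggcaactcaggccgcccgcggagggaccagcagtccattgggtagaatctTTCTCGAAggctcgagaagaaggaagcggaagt
Hspb1, chr5:135887669-135887918, plus strand: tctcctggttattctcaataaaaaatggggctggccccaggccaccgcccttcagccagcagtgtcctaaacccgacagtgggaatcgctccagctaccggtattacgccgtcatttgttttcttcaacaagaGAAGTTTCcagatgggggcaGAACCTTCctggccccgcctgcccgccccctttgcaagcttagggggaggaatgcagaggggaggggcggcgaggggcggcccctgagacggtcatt
Hspa5, chr2:34771840-34772089, plus strand: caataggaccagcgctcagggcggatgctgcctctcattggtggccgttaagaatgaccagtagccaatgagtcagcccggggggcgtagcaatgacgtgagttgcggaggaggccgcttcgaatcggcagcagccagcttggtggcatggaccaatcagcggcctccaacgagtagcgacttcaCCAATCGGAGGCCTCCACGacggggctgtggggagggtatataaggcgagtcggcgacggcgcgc

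The heat shock element letters were found for 4 of the 6 genes with a sequence. Hspa1a and Hspa1b each held 1 match, from base -104 to base -97 counted from the start, Hsph1 held 1 from -33 to -26 of the start shown, which is the same match from -54 to -47 of its second RefSeq start, and Hspb1 held 2, from -117 to -110 and from -97 to -90. The same stretch of Hspa1b differed from that of Hspa1a at 3 of 250 bases. No heat shock element letters were found before Hspa5 or before either start of Dnajb1. Both forms of the element read the same on either strand, no 2 matches overlapped, and 12.8% of the 32851 promoter sequences in the table held at least 1 match. The ER stress element, searched on both strands, was found before Hspa5 from -65 to -47 and in 0.113% of the sequences.

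**Figure D1:**
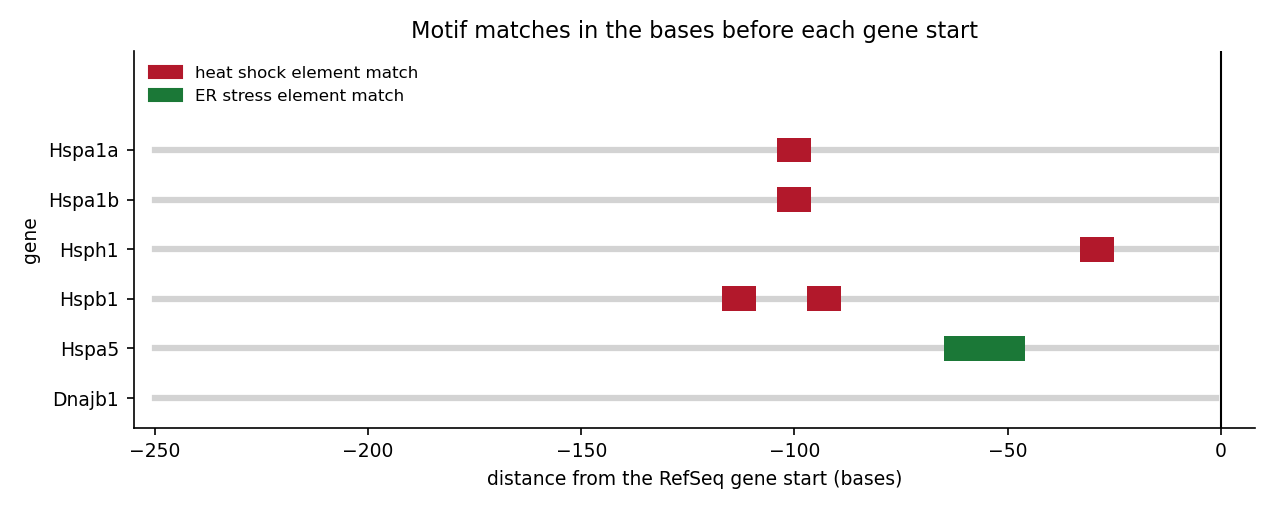
Positions of motif matches in the 250 bases before the RefSeq start of 6 chaperone genes, with distance from the start in bases on the horizontal axis. Red blocks are heat shock element matches and the green block is the ER stress element match; Hspa1a and Hspa1b have their match at the same place and Dnajb1 has none.

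The knockout was checked first. Parp2 (probe set 10414497) read 7.11 and 6.70 on knockout arrays 1 and 2, against 8.24 and 7.65 on WT arrays 1 and 2, so both knockout arrays lay below both WT arrays. The median of 12 erythroblast markers was 10.37 and 11.24 on the knockout arrays and 9.87 and 11.43 on the WT arrays. The median of 18 neutrophil markers was 8.96 and 8.46 on the knockout arrays and 10.84 and 9.98 on the WT arrays, so neutrophil transcripts were read as well, and levels of different probe sets do not give the purity of the sort. Knockout array 2 stood apart by its narrow spread, with an interquartile range of 1.98 against 2.62 to 2.94 on the other 3 arrays. Markers of several other blood cells had lower values in the knockout, although 0 of the markers in any of these lists passed the limma test over all probe sets. Unadjusted p-values under 0.05 were found for 11 neutrophil, 6 B cell, 3 monocyte and macrophage, 2 T and NK cell and 0 megakaryocyte and platelet markers. All 18 neutrophil markers had lower means in the knockout, with a summed linear signal of 22236 to 29191 in knockout cells and 41218 to 51227 in WT cells. Lower means were also found for 10 of 12 B cell markers (sums of 870 to 980 in knockout and 1804 to 2296 in WT), 13 of 16 monocyte and macrophage markers (3445 to 3816 in knockout and 6290 to 6350 in WT) and 8 of 11 T and NK cell markers (410 to 490 in knockout and 658 to 1054 in WT, with a median difference of -0.18). Of 8 megakaryocyte and platelet markers 6 had higher means, but their sums of 497 to 892 in knockout lay on either side of the 631 to 742 in WT. Linear sums weigh bright genes most. On every array Lyz2 was the brightest monocyte and macrophage marker, and Nkg7 the brightest T and NK cell marker. Nkg7 also had the lowest mean difference of its list. No marker can be read as 0 on this scale. In sorted cells measured in bulk, fewer cells of a type and less RNA per cell cannot be told apart, and the part of these markers in the values below was not tested.

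Of these chaperones, inducible HSP70 differed most between the genotypes. Hspa1a (probe set 10450369) read 6.74 and 8.63 on knockout arrays 1 and 2, against 5.25 and 5.42 on WT arrays 1 and 2. Both knockout arrays lay above both WT arrays, knockout array 2 by far the higher. The mean difference was +2.35 ± 0.62 (limma's moderated SE, 2 arrays per group), a 5.10-fold higher level, and placed Hspa1a 6th from the top among 19938 genes. Its WT values lay near the medians of all annotated probe sets on WT arrays 1 and 2 (5.24 and 5.34), so the fold is taken against a dim WT level. Taken within each replicate number, the knockout was 2.81-fold above WT at number 1 and 9.26-fold at number 2. Without knockout array 2 the difference was +1.41, and without knockout array 1 it was +3.30.

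The probe set shared by Hspa1a and Hspa1b (10450367) gave the same order of genotypes. It read 7.51 and 9.78 on knockout arrays 1 and 2, against 6.31 and 6.03 on WT arrays 1 and 2, a difference of +2.48 ± 0.71, or 5.56-fold. The fold was 2.30 at number 1 and 13.4 at number 2. Without knockout array 2 the difference was +1.34, and without knockout array 1 it was +3.61. The near-identical genes cannot be separated on this probe set, so no level is given for Hspa1b. Hspa1l, a testis-enriched HSP70 gene, is the protein-coding gene next to Hspa1a on chromosome 17 in RefSeq order, on the side away from Hspa1b. It read 6.77 and 4.02 on the knockout arrays and 4.09 and 5.53 on the WT arrays, and its groups overlapped.

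Constitutive HSP70 overlapped between the genotypes. Hspa8 (probe set 10584572) read 12.46 and 12.18 on the knockout arrays and 12.36 and 12.32 on the WT arrays, with a difference of -0.02 ± 0.36. The other 2 probe sets naming Hspa8 alone differed by +0.02 and +0.05, and the groups overlapped on all 3. The annotation pairs all 3 with the same RefSeq transcript, and whether any of them reads a processed copy of the gene is not known here. Probe sets 10584576 and 10584578 are shared by Hspa8 with Snord14c and Snord14d, small nucleolar RNAs encoded in Hspa8 introns. The first read 6.41 and 8.83 on the knockout arrays against 9.09 and 8.83 on the WT arrays, and the second read 6.45 and 8.91 against 9.10 and 8.85. Knockout array 1 alone was low on both, unlike on the probe sets naming Hspa8 alone.

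The organelle HSP70 genes overlapped between the genotypes. Hspa5, which encodes the endoplasmic reticulum chaperone BiP, read 10.48 and 9.57 on the knockout arrays and 9.99 and 9.90 on the WT arrays, a difference of +0.09 ± 0.43. The WT values lay between the knockout values. Hspa9, which encodes the mitochondrial chaperone mortalin, read 9.86 and 7.69 on the knockout arrays and 9.66 and 8.45 on the WT arrays, a difference of -0.28 ± 0.76. Its arrays separated by replicate number instead: the log2 difference of array 2 minus array 1 was -2.17 in the knockout and -1.21 in WT.

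Among the partners, Hsph1 was the second gene without overlap. It read 9.71 and 9.41 on knockout arrays 1 and 2, against 8.94 and 7.99 on WT arrays 1 and 2, a difference of +1.10 ± 0.44 or 2.14-fold. The fold was 1.71 at number 1 and 2.67 at number 2, and the difference was +0.62 without WT array 2 and +1.57 without WT array 1. Hsp90aa1, the inducible cytosolic HSP90 gene, read 11.90 and 11.52 on the knockout arrays and 11.56 and 11.39 on the WT arrays. Its difference was +0.24 ± 0.37, and its other 2 probe sets gave +0.21 and +0.26. The knockout was the higher at both numbers on all 3 probe sets, but knockout array 2 lay below WT array 1. Dnajb1 read 8.92 and 7.92 on the knockout arrays and 8.60 and 7.97 on the WT arrays, a difference of +0.14 ± 0.48 with overlap.

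Hspb1 was set apart by 1 array. Probe set 10526410 read 4.75 and 6.04 on the knockout arrays and 4.77 and 4.96 on the WT arrays, and probe set 10408928 read 4.71 and 6.00 against 4.68 and 4.90. Knockout array 2 was the high one on both, and knockout array 1 lay with the WT arrays. Hspb1 was dim outside knockout array 2. Both probe sets lay below the medians of all annotated probe sets there, 5.23 on knockout array 1 and 5.24 and 5.34 on WT arrays 1 and 2. The difference of the first, +0.53 ± 0.50, was -0.12 without knockout array 2 and +1.17 without knockout array 1.

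**Figure D2:**
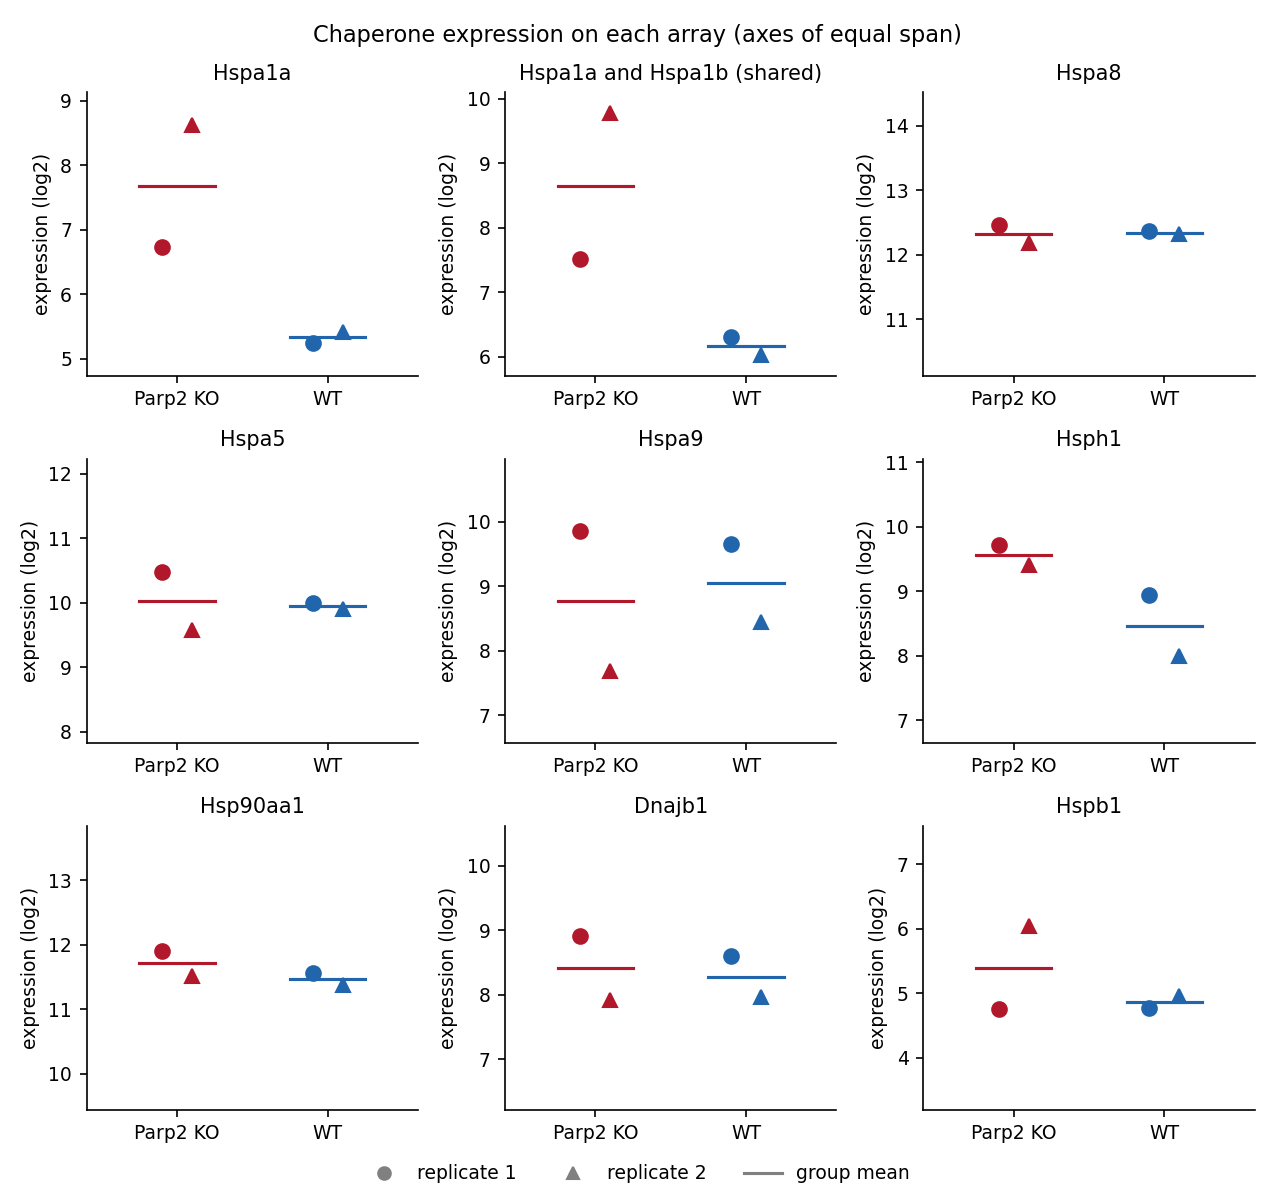
Expression (log2) of 8 chaperone genes and of the probe set shared by Hspa1a and Hspa1b on each array, Parp2 KO left and WT right, with circles for replicate 1, triangles for replicate 2 and bars for group means. All vertical axes span the same range; Hspa1a, the shared probe set and Hsph1 have both knockout arrays above both WT arrays.

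Counted over the 8 genes, 6 had the higher mean in the knockout, as did 58.5% of all genes, and 2 (Hspa1a and Hsph1) had both knockout arrays above both WT arrays. Over all genes the groups did not overlap for 26%, with the knockout higher for 16.4% and lower for 9.62%, and 0 of the 8 lay lower. Since the genes were chosen with this contrast known, nothing is read from these shares. The median difference was +0.19 over the 8 genes and +0.08 over all genes. For Hspa1a and Hsph1 the difference between genotypes was larger than either gap within a genotype, which was so for 2 of the 8 genes. For 3 of the 8 (Hspa1a, Hsph1 and Hsp90aa1) it had the same sign at both replicate numbers on the brightest probe set. The shares of all genes for these last 2 counts were not computed, so nothing is read from them either.

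In the deposited values, Hspa1a and Hspb1 were higher on array 2 than on array 1 in both genotypes, and the other 6 were lower on array 2 in both. After repeated quantile normalisation this pattern remained for 3 of the 8, namely Hspa5, Hspa9 and Dnajb1, each lower on array 2 in both genotypes. The probe set shared by Hspa1a and Hspa1b was higher on array 2 in the knockout (+2.26) and lower on it in WT (-0.28). Of all genes, 33.3% were higher and 26.3% lower on array 2 in both genotypes. No label says what the number marks. For Hspa1a the step from array 1 to array 2 was +1.89 in the knockout and +0.17 in WT.

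**Figure D3:**
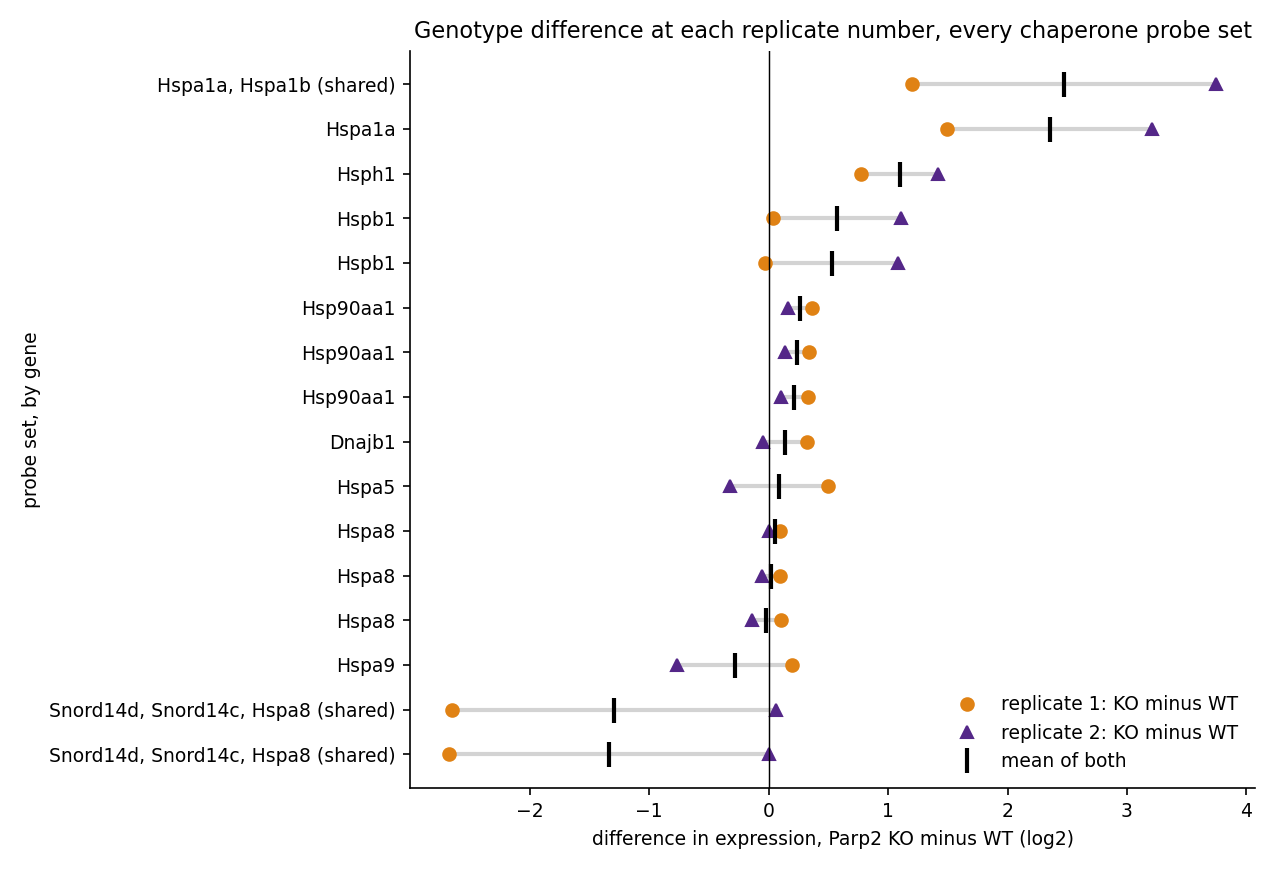
Difference between Parp2 KO and WT (log2) for all 16 probe sets of the chaperones, taken at replicate 1 (circles), at replicate 2 (triangles) and as their mean (bars). All probe sets of Hspa1a, Hsph1 and Hsp90aa1 lie right of 0 at both numbers. So do Hspb1 probe set 10408928 (+0.04 and +1.11) and Hspa8 probe set 10528021 (+0.09 and +0.01). Those shared with Snord14c and Snord14d lie far left at replicate 1 only.

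The rest of the chaperone network was then compared through 10 lists with 110 measured genes outside the set described above. These lists also hold genes of the heat shock and unfolded protein responses that do not encode chaperones. With limma over 23410 annotated probe sets, 0 of the 110 were past an adjusted p of 0.05, higher or lower, and over all probe sets the count was also 0 (0%). The lowest adjusted p among the 110 was 0.9999. Unadjusted p-values under 0.05 were found for 1 gene with a higher and 3 with a lower level in the knockout, against 0.356% and 1.76% of all genes. Of the 110 genes 52 had higher and 58 lower means, with a median of -0.02, while 58.5% of all genes had higher means. Groups did not overlap for 10 of the 110 that were higher and 7 that were lower, against 16.4% and 9.62% of all genes.

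The gene with a higher level was Bag3, a nucleotide exchange factor of HSP70 and a known HSF1 target. It read 8.08 and 7.46 on the knockout arrays and 6.95 and 6.37 on the WT arrays, without overlap, a difference of +1.11 ± 0.42 (limma, unadjusted p = 0.0333, adjusted p = 0.9999). Hspb11 had the lowest p. It encodes an intraflagellar transport protein, and read 4.28 and 4.61 on the knockout arrays and 6.08 and 6.22 on the WT arrays, a difference of -1.70 ± 0.36 (limma, unadjusted p = 0.00242, adjusted p = 0.9999). Rgs2, a regulator of G protein signalling, read 6.74 and 5.85 on the knockout arrays and 8.32 and 7.49 on the WT arrays, a difference of -1.61 ± 0.48. Hspa13, a microsomal HSP70 protein, read 5.64 and 5.17 on the knockout arrays and 6.39 and 6.24 on the WT arrays, a difference of -0.91 ± 0.37. With the replicate number as a block, Hspb11 and Rgs2 passed the test (limma, adjusted p = 0.00486 and 0.0102), Bag3 and Hspa13 did not, and no other gene of the 110 did. Under that block 0.214% of all probe sets were called higher and 0.957% lower (50 and 224), so both genes lay in the more common direction.

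By list, 14 of 20 other heat shock response targets had higher means, with a median difference of +0.10, near the +0.08 of all genes. Bag3 led this list, Dnajb4 differed by +0.70 ± 0.64 with overlap, and Rgs2 was the lowest. Among the other HSP70 and HSP110 proteins 6 of 9 were higher, with a median of +0.06, from Hspa13 and Hspa2 (-0.88 ± 0.49) to Hspa12b (+0.49 ± 0.38) and Hspa1l (+0.58). The nucleotide exchange factors and HSP70 or HSP90 cofactors went both ways, 11 higher and 13 lower, with a median of -0.02, among them Ptges3 and Fkbp5, HSP90 cochaperones at -0.42 each. The other J-domain co-chaperones had lower means for 16 of 24 genes, with a median of -0.12. Dnajb9 (-0.85), Dnajc14 (-0.72) and Dnajc19 (-0.52) had the lowest p-values. At number 1 the median level of this list was higher in the knockout (8.33 against 8.19), and at number 2 lower (7.72 against 8.16). Dnajc19 was at +0.05 at number 1 and at -1.08 at number 2.

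Of the small heat shock proteins other than Hspb1, 6 of 8 were higher, with a median of +0.12. Cryab was at +0.31, Hspb6 at +0.38 and Hspb11 at -1.70. Most of this list was dim, with a median level of 4.77 and 5.12 on the knockout arrays and 4.94 and 5.04 on the WT arrays. The medians of all annotated probe sets were 5.23 and 5.49 on the knockout arrays and 5.24 and 5.34 on the WT arrays. The other HSP90 genes, Hsp90b1 of the endoplasmic reticulum (-0.25 ± 0.39) and Trap1 of mitochondria (-0.31 ± 0.83), both overlapped between the genotypes, and at number 1 the knockout was the higher for both (+0.04 and +0.23). The chaperonins, ring-shaped folding machines of the cytosol and mitochondria, had lower means for 8 of 10 genes, with a median of -0.22. Cct3 (-0.36), Cct5 (-0.32) and Cct4 (-0.27) had the lowest p-values. At number 1 the median level of the chaperonins was higher in the knockout (10.16 against 9.92). At number 2 it was lower (8.74 against 9.07). At number 1 the difference was +0.49 for Cct3, -0.02 for Cct5 and +0.14 for Cct4, and at number 2 -1.21, -0.62 and -0.68. In the deposited values all 10 chaperonin genes were lower on array 2 than on array 1 in both genotypes, as Hspa9 was. In the mitochondrial folding and import list, which shares Hspd1 and Hspe1 with the chaperonins, 10 of 14 genes lay lower (median -0.05). Tomm70a was at -0.42 and Grpel1, the exchange factor of mortalin, at +0.23. The median level of this list was 8.41 in the knockout and 8.36 in WT at number 1, and 6.84 and 7.415 at number 2.

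Endoplasmic reticulum chaperones and genes of the unfolded protein response had a median of +0.03, with 11 of 20 higher. Higher values on both knockout arrays than on both WT arrays were found for 3 of the 20, against 16.4% of all genes. Sdf2l1 (+0.80 ± 0.44) and Atf6 (+0.54 ± 0.38) were among these 3. Dnajb9, which is also in this list, went the other way (-0.85 ± 0.48, with overlap). Of the other heat shock factors and their binding protein, 4 of 6 were higher, with a median of +0.10. Hsf4 was at +0.42, Hsf2bp at +0.28 and Hsbp1 at -0.44. This list was dim too, with a median level of 4.99 and 5.19 on the knockout arrays and 4.91 and 4.72 on the WT arrays. Handling and immediate early genes, which respond quickly to stimuli, had 9 higher and 9 lower means and a median of -0.01. Jun read 7.58 and 7.24 on the knockout arrays and 6.21 and 5.72 on the WT arrays (+1.44 ± 0.39), while Zfp36 (-1.43 ± 0.49) and Klf6 (-1.07 ± 0.36) were lower without overlap. Their part in the values of Hspa1a was not tested.

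**Figure D4:**
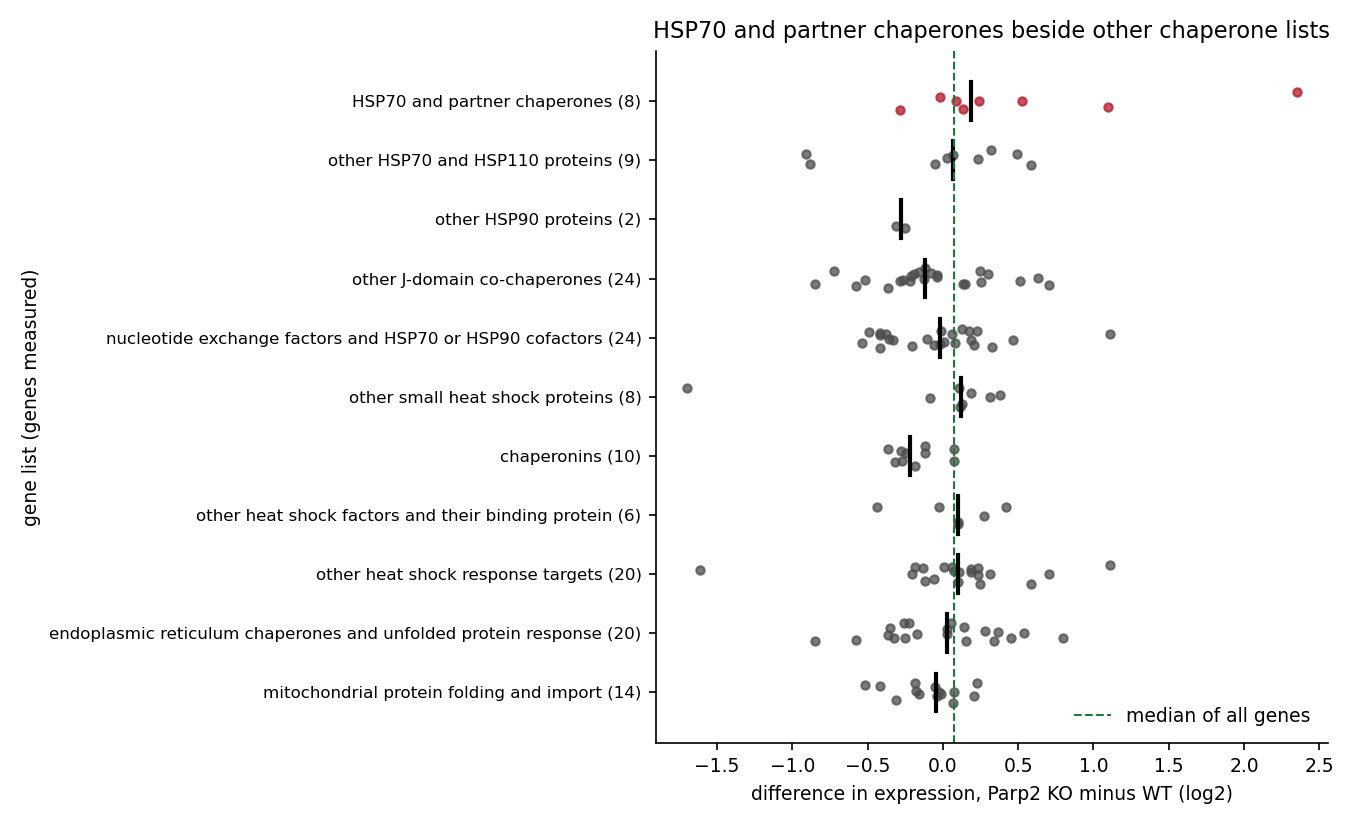
Difference between Parp2 KO and WT (log2) for each gene of the HSP70 and partner set (red) and of 10 other chaperone lists (grey), with list medians as bars and the median of all genes, +0.08, as a dashed line. Hspa1a at +2.35 lies right of all other genes shown, and list medians lie between -0.28 and +0.19.

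Heat shock element letters were set beside the differences. Over 2069 measured genes with a match before a RefSeq start the median difference was +0.08, and over 13545 genes without one it was +0.07. Among the other heat shock response targets it was +0.07 for 5 genes with a match and +0.11 for 13 without.

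The profile of Hspa1a was last compared with those of all probe sets naming 1 gene, as the root mean square distance on the log2 scale between values centred on their mean over the 4 arrays. Among named genes the closest was Eda2r, a receptor of the tumour necrosis factor family, at a distance of 0.16. It read 5.72 and 7.42 on the knockout arrays and 3.89 and 3.99 on the WT arrays. Next came Dglucy, a D-glutamate cyclase, at 0.18, a probe set of the mitochondrial carrier gene Slc25a36 at 0.27, Polk, a translesion DNA polymerase, at 0.32, the second Slc25a36 probe set at 0.36, and Cpt1c, a carnitine palmitoyltransferase of neurons, at 0.45. All 6 probe sets were highest on knockout array 2, as Hspa1a was, and their differences ranged from +1.46 for Cpt1c to +2.63 for Eda2r. Both traits follow from choosing probe sets by their closeness to Hspa1a. Closeness over 4 arrays describes these arrays only.

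**Figure D5:**
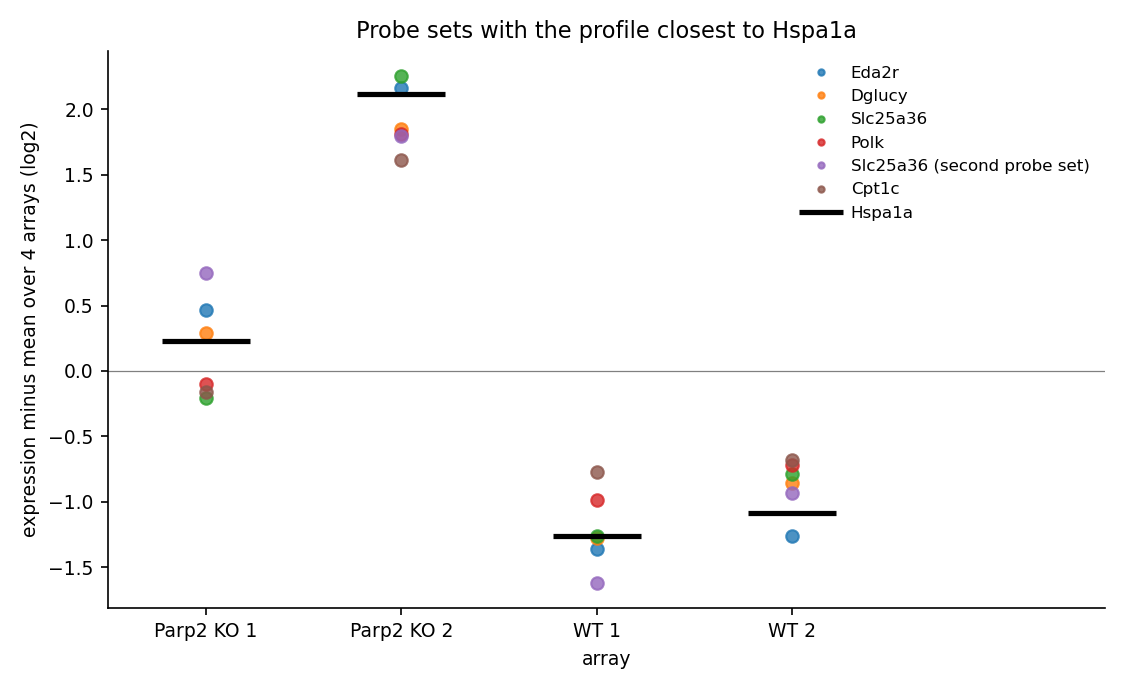
Expression minus the mean over 4 arrays (log2) for Hspa1a (black bars) and the 6 named-gene probe sets closest to it (coloured points), with the Parp2 KO arrays left of the WT arrays. All lie highest on knockout array 2 and below 0 on both WT arrays, as follows from choosing them by closeness to Hspa1a.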

How the data were processed

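Expression was measured on 4 one-colour Affymetrix whole-transcript arrays, 2 per genotype, and each column of the deposited log2 table was assigned by its sample name. The tools named per the submitters' processing notes are RMA, limma and R 3.0.2, and their roles are not given in the sources used here; the authors' deposited log2 values were used as they stand. RMA compresses differences of dim and very bright probe sets. The platform annotation gave 1 symbol to 21789 of 35511 probe sets, several to 1621 and none to 12101. A gene with several probe sets naming it alone was represented by the one with the highest mean.

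The 2 knockout and 2 WT arrays entered a limma fit (version 3.58.1, R 4.3.3, lmFit and eBayes, genotype as the only term) over 23410 annotated probe sets, with Benjamini-Hochberg adjustment and calls at 0.05. The fit had 2 residual and 4.77 prior degrees of freedom. It was also run on simulated data with independent noise and changes larger than any difference of the chaperones here. That run does not show how well differences of the size seen here are found. With 2 arrays per group the smallest p of an exact permutation test is 0.333. Separate animals are not stated in the labels, so the spread behind the p-values could be technical. Sample titles begin with 1 and 2 for WT and 3 and 4 for the knockout; if these mark an order of processing, it cannot be told apart from genotype.

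The genes, lists and tests were chosen with earlier results of these data known. Named are all listed chaperones, Parp2, up to 3 genes per chaperone or handling list with the lowest p, and the 6 probe sets with the profile closest to Hspa1a, predicted genes left out; Hspa1l and the genes with an unadjusted p under 0.05 were also named after their values were seen. Marker lists are given as counts, sums and medians, with Lyz2 and Nkg7 named as the brightest of their lists. Alternatives were the replicate block, leaving out each array, median centring, repeated quantile normalisation, brighter probe sets only, trended and robust moderation, all rows, an unadjusted threshold, and averaging the probe sets of a gene.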

Additional observations from a re-analysis of the deposited data

How the results depend on the processing

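The 2 arrays per genotype limit every value. The count of probe sets past the limma test (0) was 274 with the replicate number as a block, 0 to 62 with 1 array left out (62 without WT array 2, 5 without WT array 1), 486 at an unadjusted p under 0.05 and 8 under trended, robust moderation. It stayed 0 with median centring, repeated quantile normalisation, brighter probe sets only and all rows. Whether the number pairs the arrays is not known, as each is shared by only 2; across probe sets, array 2 minus array 1 in the knockout correlated with the same step in WT at 0.468, and the block left 1 residual degree of freedom. The count past the test among the 110 genes of the other chaperone lists (0) was 2 with the replicate block and 0 in every other setting run. Those 2 were Hspb11 and Rgs2, which encode an intraflagellar transport protein and a regulator of G protein signalling. The count of chaperones without overlap (2) was 4 after repeated quantile normalisation, where Hspa8 (+0.08) and Hsp90aa1 (+0.40) were added and 27% of all genes did not overlap. With 1 array left out, an alternative chosen after seeing the data, it was 2 to 8, where 53% to 78.2% of all genes did not overlap because a lone array is easily outside the other group. Hspa1a ranged from +1.41 to +3.30, the shared probe set from +1.34 to +3.61 and Hsph1 from +0.62 to +1.57 over all settings, and Hsp90aa1 from +0.05 to +0.43. The sign changed in at least 1 setting for Hspa8 (-0.16 to +0.12), Hspa5 (-0.37 to +0.54), Hspa9 (-1.37 to +0.80), Dnajb1 (-0.37 to +0.64) and Hspb1 (-0.12 to +1.17).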
